A study of Homo sapiens with 24 samples.

Results

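The expression of 10 genes used to mark stem-like and mesenchymal states of glioblastoma was followed across 24 human RNA-seq libraries. The genes are CD44, VIM, NES, CHI3L1, GFAP, SOX2, SOX9, PROM1, NCAM1 and L1CAM. They were chosen by symbol, as the rows of the count tables whose Ensembl identifiers carry these names in GENCODE 29, which gave 10 of 58721 genes. The study lowered or restored ZFX, a zinc finger transcription factor encoded on the X chromosome, and asked how gene expression changed. The first cell line was LN-229, an established human glioblastoma line labelled wild type and grown in DMEM with serum. LN-229 cells were given an siRNA that targets ZFX (siZFX), one that targets ZNF593, another zinc finger gene (siZNF593), both siRNAs together, or a control siRNA in 2 sets named siControl_2 and siControl. The deposited names mark siControl_2 as the control of the combined treatment, and the treatment label is the same for both control sets. The other line was 293T, derived from human embryonic kidney, in a form in which ZFX and its paralog ZNF711 had been knocked out (DKO cells). All 9 DKO libraries share this genotype. DKO cells were transfected with a construct named ZFX12_13, which the labels describe as FLAG-tagged ZFX without saying what the numbers mean (the series text speaks of mutant ZFX constructs), with FLAG-tagged wild-type ZFX (wtZFX), or with the empty vector pCMV6. Each of the 8 groups held 3 libraries. The series text calls them biological replicates and leaves the origin of each culture unstated, so p-values measure the spread between these libraries, which may be technical.

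Glioblastoma cells move between expression states, and the mesenchymal state is usually recognised by CD44, the receptor for the matrix sugar hyaluronan, by the intermediate filament protein vimentin (VIM) and by the secreted chitinase-like protein CHI3L1. Stem-like cells are usually recognised by nestin (NES), an intermediate filament protein of neural precursors, by the transcription factors SOX2 and SOX9, and by the surface proteins prominin 1 (PROM1, also called CD133) and L1CAM. GFAP is the intermediate filament protein of astrocytes, and NCAM1 and L1CAM are cell adhesion molecules of the immunoglobulin superfamily found on neural cells.

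Reads counted on genes numbered 16774179 to 30159260 per LN-229 library and 16223239 to 24272308 per DKO library. Counts are given as CPM, which scales each library's counts to a common total after TMM normalization, and a count of 0 allows up to 0.0995 to 0.185 CPM depending on the library (3 counts, counting error only). ZFX RNA averaged 16.0 ± 3.53 CPM in siZFX cells and 26.7 ± 2.33 CPM in doubly treated cells, against 53.6 ± 4.14 CPM in siControl_2 and 50.5 ± 4.73 CPM in siControl cells (SD, n = 3). ZNF593 RNA, counted over both strands, averaged 2.26 ± 0.643 CPM in siZNF593 cells and 3.11 ± 0.487 CPM in doubly treated cells, against 36.0 ± 3.80 and 34.7 ± 3.27 CPM in siControl_2 and siControl cells. ZFX reached 18890.0 ± 3282 CPM with ZFX12_13 and 15530.0 ± 1235 CPM with wtZFX, against 224 ± 10.2 CPM with pCMV6. Both knocked-out genes still gave RNA in DKO cells, so their counts are no check of the knockout. The glial genes SOX10 (1260.0 to 1362 CPM) and S100B (348 to 591 CPM) were high in the 6 LN-229 control libraries, while the astrocyte genes AQP4 and ALDH1L1 had at most 0.138 CPM and summed immune cell markers at most 1.55 CPM there. The kidney and epithelial genes PAX2 and EPCAM averaged 2.08 and 2.13 CPM in pCMV6 cells. They are 2 of 9 such markers, which summed to 93.4 to 97.5 CPM there, and 6 of the 9 averaged 1 CPM or more. Replicate 3 of the combined treatment stood apart from its group for CD44, VIM, NES, SOX2 and L1CAM, and their changes with both siRNAs are given with and without it. It also had the highest share of unmapped reads in LN-229 (3.17%, against 1.34% to 2.11% in the other libraries). The part of this in its values was not tested.

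RefSeq promoter sequences were used for 7 of the 10 genes, namely CD44, VIM, NES, CHI3L1, SOX2, PROM1 and L1CAM. The 250 bases before the start site are shown for NES and L1CAM, the 2 of these 7 genes that were higher with both ZFX constructs in DKO cells. Capitals mark AGGCCT, the core of the motif known for ZFX, which reads the same on both strands and was searched on both, and the build is GRCh38.p14. L1CAM has 2 listed start sites, of which the one farther upstream is shown. The NES stretch is chr1:156677408-156677657 and the L1CAM stretch is chrX:153876015-153876264, both on the minus strand and written 5′ to 3′.
NES: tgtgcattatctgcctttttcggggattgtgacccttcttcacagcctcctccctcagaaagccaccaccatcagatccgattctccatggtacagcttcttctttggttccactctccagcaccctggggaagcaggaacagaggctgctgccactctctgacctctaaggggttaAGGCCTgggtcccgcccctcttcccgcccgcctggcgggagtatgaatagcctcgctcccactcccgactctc
L1CAM: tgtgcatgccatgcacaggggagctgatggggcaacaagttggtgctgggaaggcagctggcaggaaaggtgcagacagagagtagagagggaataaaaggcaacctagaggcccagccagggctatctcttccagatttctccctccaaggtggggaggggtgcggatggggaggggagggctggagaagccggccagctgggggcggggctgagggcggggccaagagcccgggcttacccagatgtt
The NES window held the motif 1 time, with its first base 73 bases before the start site. L1CAM windows held none, nor did those of CD44, VIM, CHI3L1 and SOX2, and 1 of 4 PROM1 windows held it, so that 2 of the 11 windows of these genes contained it. Of all 35116 promoter windows of 300 bases, 10.9% held it. A match is a description of the letters and no evidence of binding.

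The order of the 10 genes per transcript length differed between the lines. On the TPM scale, taken from both strands summed and the exon length in GENCODE 29, VIM was highest in siControl LN-229 cells at 4932 ± 52.2 TPM (SD, n = 3). NES followed at 399 ± 7.59, CD44 at 310.3 ± 4.79 and SOX2 at 109 ± 3.71 TPM. Lower levels were those of NCAM1 (11.9 ± 0.558 TPM), L1CAM (6.83 ± 0.603 TPM), GFAP (1.20 ± 0.255 TPM) and SOX9 (0.561 ± 0.172 TPM), and CHI3L1 and PROM1 had no read. Each of these neighbours was separated by its spread except CHI3L1 and PROM1. From the unstranded column, siControl cells had 0.967 ± 0.249 TPM of GFAP and 0.756 ± 0.227 TPM of SOX9, and these ranges overlapped. The ranges of CD44 and NES overlapped in siZNF593 and in siControl_2 cells, and CD44 stood above NES in siZFX and in doubly treated cells. In pCMV6 DKO cells VIM again came first at 1358 ± 26.5 TPM. It was followed by SOX9 (23.99 ± 1.72 TPM), NCAM1 (20.7 ± 0.207 TPM), SOX2 (12.1 ± 0.971 TPM), NES (7.40 ± 0.631 TPM), GFAP (2.92 ± 0.302 TPM), L1CAM (1.54 ± 0.198 TPM), CD44 (1.01 ± 0.135 TPM), PROM1 (0.214 ± 0.123 TPM) and CHI3L1 (0.0197 ± 0.0341 TPM), with no overlap between neighbours. The place of GFAP in this order depended on the counting, since both strands summed cannot separate it from antisense genes over its exons. From the unstranded column GFAP had 0.986 ± 0.209 TPM in pCMV6 cells, below L1CAM (1.99 ± 0.255 TPM). Its range then overlapped that of CD44 (1.11 ± 0.106 TPM). With wtZFX the ranges of NES and NCAM1 overlapped on both strands summed. Levels in the lines were set side by side only, since the lines were not treated alike.

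The 10 genes did not move as a block in any comparison. Of the 8 that had enough counts to be tested in LN-229, siZFX cells had 1 higher (GFAP) and 3 lower (NES, SOX2, NCAM1) than siControl cells at an adjusted p below 0.05 by edgeR's quasi-likelihood test, when 30.9% of all 17684 tested genes were called. With siZNF593, 2 were higher (GFAP, L1CAM) and 3 lower (CD44, VIM, NES), with 26.8% of all genes called. With both siRNAs against siControl_2, 1 was higher (GFAP) and 4 were lower (CD44, VIM, NES, SOX9), with 38.2% called. In DKO cells 9 genes were tested, and both ZFX12_13 and wtZFX had 3 higher (NES, GFAP, L1CAM) and 1 lower (NCAM1) than pCMV6, with 36.6% and 42.3% of 19376 genes called. By direction, 20.9% of all genes were higher and 15.7% lower with ZFX12_13, and 23.2% and 19.2% with wtZFX. With 8 or 9 members tested, 1 gene shifts such a share widely, and the counts are given as a description. Groups of CPM did not overlap for 7 members with siZFX (51.8% of all genes), 6 with siZNF593 (44.8%), 4 with both siRNAs (45.6%), 6 with ZFX12_13 (46.0%) and 4 with wtZFX (55.7%). The siZFX and siZNF593 comparisons share the siControl libraries, and the construct comparisons share the pCMV6 libraries, so their values are given side by side and no overlap between them is drawn as a result.

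**Figure D1:**
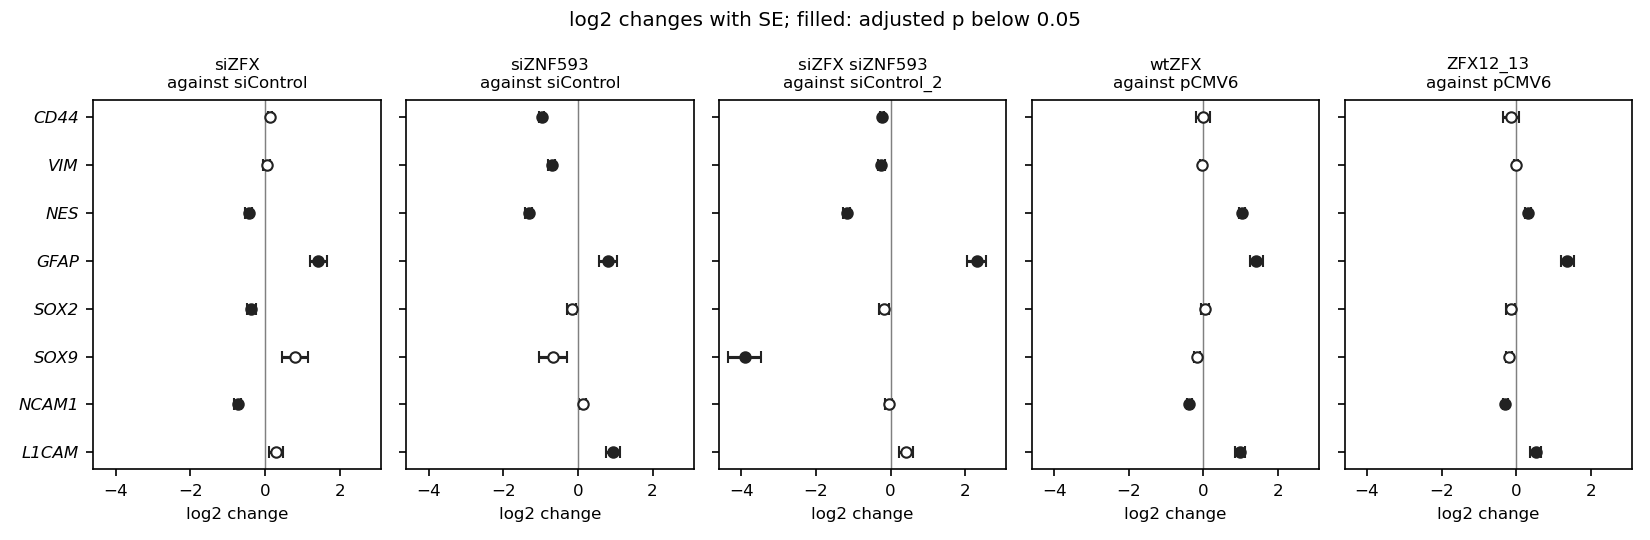
Log2 change, with its SE, of the 8 genes tested in LN-229 cells, in 5 comparisons (edgeR). PROM1, tested in DKO cells only, is not drawn. Filled points have an adjusted p below 0.05. GFAP lies to the right of 0 in all 5 panels, NES to the left in the 3 LN-229 panels and to the right in the 2 DKO panels.

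CD44 (ENSG00000026508, GRCh38 chr11:35138870-35232402, plus strand) was lower with siZNF593 and, against siControl, not called with siZFX. It had 889.5, 901 and 891 CPM in siZFX cells and 403, 423 and 420.0 CPM in siZNF593 cells, against 816, 820.1 and 808 CPM in siControl cells. The 3 groups did not overlap, with every siZNF593 library lowest and every siZFX library highest. The siZNF593 change passed the test (log2 change -0.97, SE 0.06, adjusted p = 1.74e-11), and the siZFX change did not (log2 change 0.13, SE 0.06, adjusted p = 0.084). Set against siControl_2 or against all 6 controls, the siZFX difference passed, at a log2 change of 0.24 (adjusted p = 0.00208) and 0.19 (adjusted p = 0.00438). Fewer cells with a transcript and less transcript per cell cannot be told apart in these bulk libraries. With both siRNAs CD44 had 631, 621 and 693 CPM, against 741, 749.9 and 782 CPM in siControl_2 cells. All 3 doubly treated libraries lay below all 3 controls, and the difference passed the test (log2 change -0.22, SE 0.06, adjusted p = 0.00361), though not when only these groups were fitted (adjusted p = 0.0959). Without replicate 3 of the combined treatment the log2 change was -0.27 (adjusted p = 8.4e-05). In DKO cells CD44 was low, with 1.89, 2.29 and 1.85 CPM for ZFX12_13, 1.82, 2.44 and 2.32 CPM for wtZFX and 1.99, 2.30 and 2.37 CPM for pCMV6. These ranges overlapped, and neither construct differed from pCMV6 by the test (log2 change -0.14, 95% interval -0.56 to 0.27, adjusted p = 0.647 for ZFX12_13; log2 change -0.01, 95% interval -0.40 to 0.38, adjusted p = 0.966 for wtZFX).

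**Figure D2:**
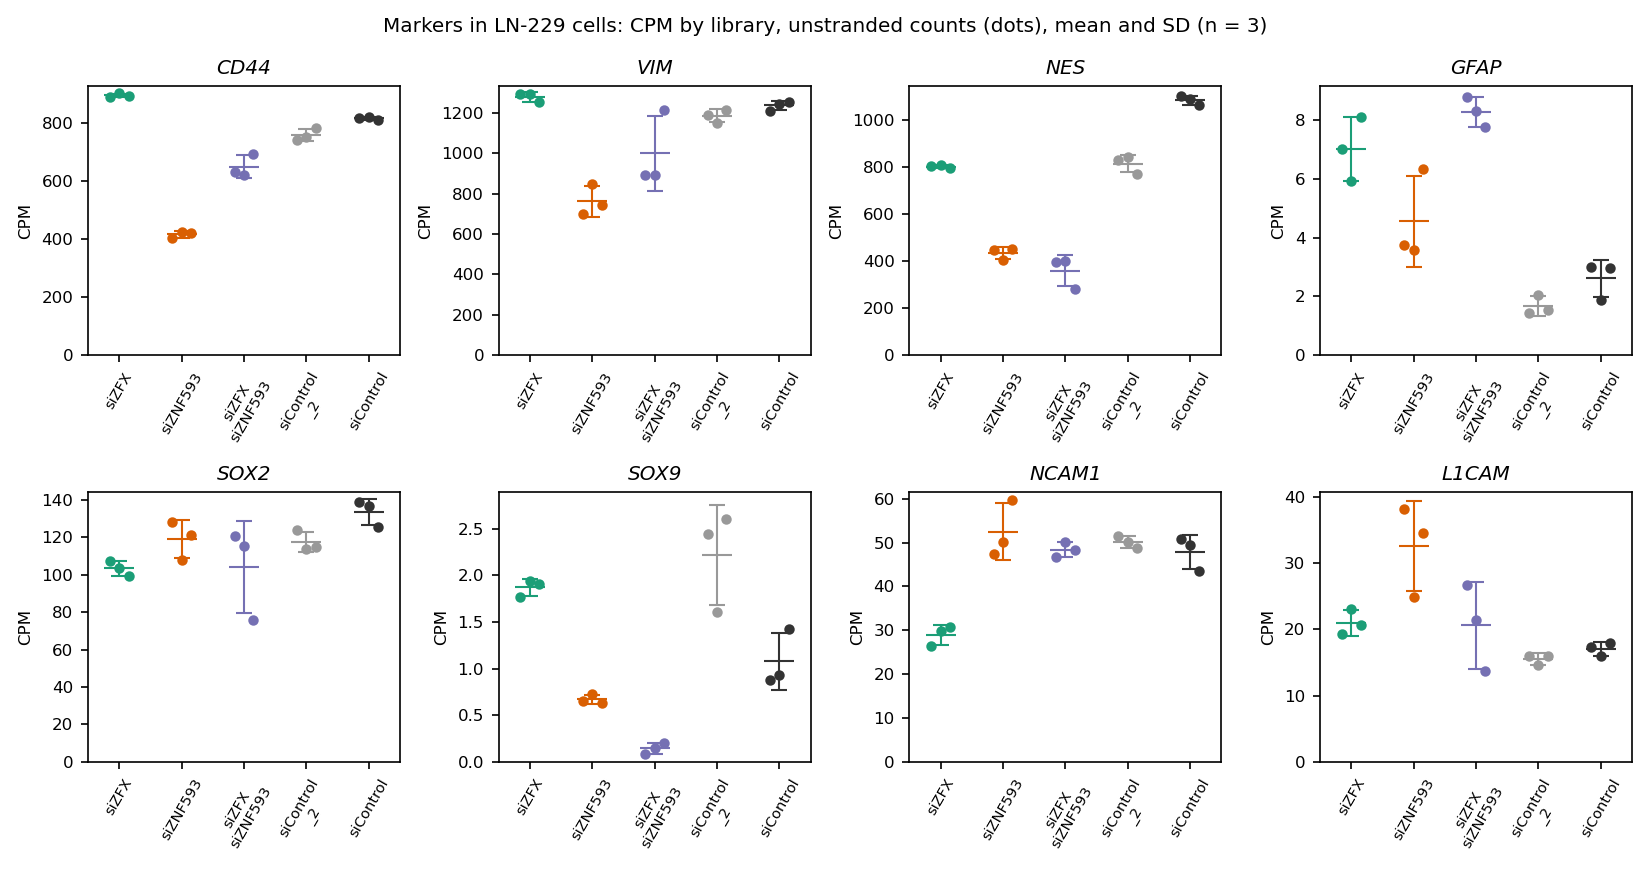
CPM of the 8 tested genes in each LN-229 library (dots), with mean and SD of 3 libraries, on axes that start at 0. CD44 and VIM are lowest in siZNF593 cells, NCAM1 is lowest in siZFX cells, and SOX9 is lowest in doubly treated cells.

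VIM (ENSG00000026025, chr10:17228259-17237593, plus strand) also fell with siZNF593 and was not called with siZFX. Its unstranded counts hold only part of its reads, because 52.6% of its exon bases are overlapped by the antisense genes VIM-AS1 and AL133415.1 and reads there count for neither gene. VIM had 1293, 1294 and 1253 CPM in siZFX cells and 699, 849 and 742 CPM in siZNF593 cells, against 1212, 1247 and 1254 CPM in siControl cells. The siZNF593 libraries lay below the controls without overlap (log2 change -0.70, SE 0.09, adjusted p = 9.55e-06), and the siZFX libraries overlapped them (log2 change 0.05, SE 0.09, adjusted p = 0.745). With both siRNAs VIM had 895, 891 and 1216 CPM, against 1190.0, 1153 and 1216 CPM in siControl_2 cells. Replicate 3 lay level with the highest control and the groups overlapped, with an adjusted p near the threshold (log2 change -0.25, SE 0.09, adjusted p = 0.0427) that was missed under 10 of the alternatives tried (adjusted p of 0.0565 to 0.276), among them each of the 3 fits without 1 siControl_2 library and those without replicate 1 or 2 of the combined treatment. Without replicate 3 the log2 change was -0.40 (adjusted p = 2.33e-07). Counted over both strands, which also takes in antisense reads, doubly treated cells had 3182, 3121 and 3215 reads on the CPM scale and siControl_2 cells 4662, 4336 and 4540.0. These groups did not overlap (log2 change -0.47, SE 0.06, adjusted p = 1.07e-06), and siZNF593 cells were lower than siControl cells as well (log2 change -0.78, SE 0.06, adjusted p = 7.58e-10). The unstranded column kept 37.8% of the VIM reads of replicate 3 and 25.5% to 30.8% in the other 14 LN-229 libraries. In DKO cells the 3 groups overlapped, at 223 to 254 CPM, and neither construct passed the test (log2 change -0.02, 95% interval -0.12 to 0.09, adjusted p = 0.844 for ZFX12_13; log2 change -0.05, 95% interval -0.15 to 0.05, adjusted p = 0.461 for wtZFX).

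**Figure D3:**
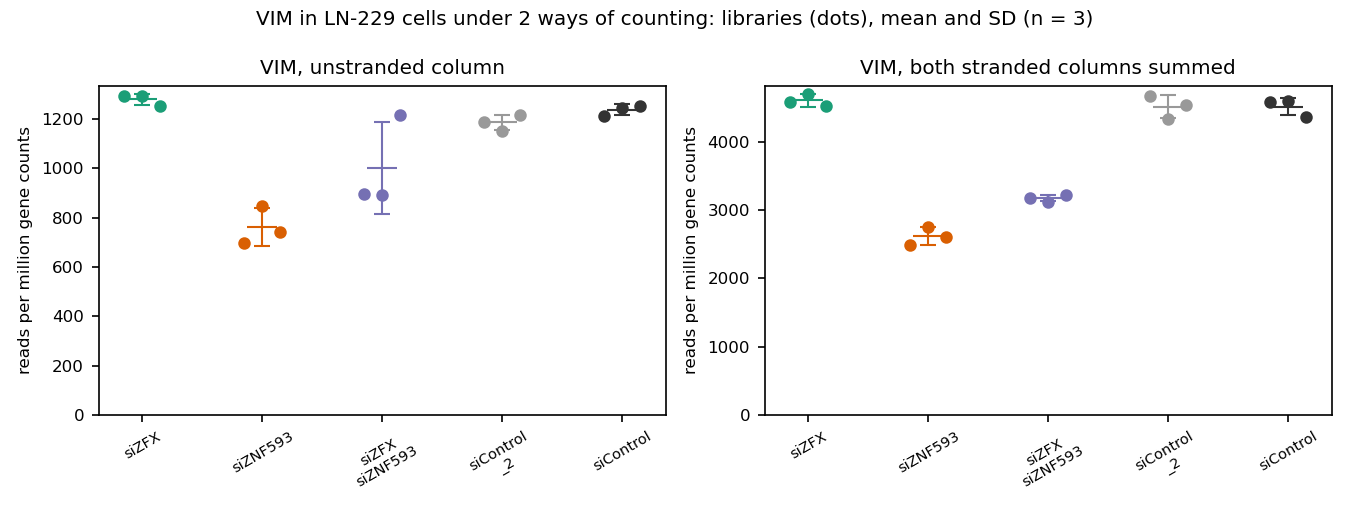
VIM in LN-229 libraries on the CPM scale, from the unstranded column (left) and from both stranded columns summed (right); dots are libraries, lines the mean and SD of 3. The third library with both siRNAs lies at 1216 on the left, within the control range, and at 3215 on the right, below every control.

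NES (ENSG00000132688, chr1:156668763-156677397, minus strand), whose counts no other gene overlaps, was lower with each siRNA and higher with each ZFX construct. It had 804, 809 and 797 CPM in siZFX cells and 449.5, 407 and 451 CPM in siZNF593 cells, against 1103, 1090.0 and 1064 CPM in siControl cells. Neither treated group overlapped the controls, and siZNF593 libraries were lowest. The fall passed the test for siZFX (log2 change -0.43, SE 0.09, adjusted p = 0.000911) and for siZNF593 (log2 change -1.32, SE 0.09, adjusted p = 8.54e-10). The siZFX call ended with siControl_2 in place of siControl, where the log2 change was -0.02 (adjusted p = 0.892), and the 2 control sets differed from each other. Doubly treated cells had 395, 401 and 283 CPM, against 829, 843 and 773 CPM in siControl_2 cells. All doubly treated libraries lay far below the controls, and replicate 3 was lowest (log2 change -1.18, SE 0.09, adjusted p = 3.79e-09). Without replicate 3 the log2 change was -1.03 (adjusted p = 2.23e-20). In DKO cells NES had 21.7, 20.7 and 22.6 CPM with ZFX12_13 and 35.2, 35.8 and 36.2 CPM with wtZFX, against 17.9, 18.8 and 15.8 CPM with pCMV6. The 3 groups did not overlap, with wtZFX highest and pCMV6 lowest. NES rose with both constructs (log2 change 0.31, SE 0.08, adjusted p = 0.00408 for ZFX12_13; log2 change 1.03, SE 0.07, adjusted p = 5.7e-11 for wtZFX), and ZFX12_13 was lower than wtZFX (log2 change -0.72, SE 0.07, adjusted p = 1.46e-07).

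GFAP (ENSG00000131095, chr17:44903161-44916937, minus strand) was the only one of the 10 genes called higher in all 5 of these comparisons, at low counts. It had 6.995, 5.92 and 8.11 CPM in siZFX cells and 3.76, 3.57 and 6.34 CPM in siZNF593 cells, against 2.99, 1.89 and 2.98 CPM in siControl cells. Neither treated group overlapped the controls. The rise passed the test for siZFX (log2 change 1.43, SE 0.23, adjusted p = 4.89e-05) and for siZNF593 (log2 change 0.80, SE 0.24, adjusted p = 0.0164), and the siZNF593 call was lost without its replicate 3 (log2 change 0.47, adjusted p = 0.196) or without siControl replicate 2 (log2 change 0.59, adjusted p = 0.116). GFAP averaged lower in siControl_2 than in siControl libraries, with overlap and without passing the test (log2 change -0.64, SE 0.26, adjusted p = 0.137). Against siControl_2 the change was 2.07 on the log2 scale for siZFX (adjusted p = 6.35e-07) and 1.44 for siZNF593 (adjusted p = 0.000161). Doubly treated cells had 8.78, 8.29 and 7.76 CPM, against 1.43, 2.06 and 1.53 CPM in siControl_2 cells. Every doubly treated library lay above every library of both control sets (log2 change 2.31, SE 0.25, adjusted p = 1.7e-07), with a log2 change of 1.66 against siControl (adjusted p = 4.89e-06). In DKO cells GFAP had 6.32, 6.27 and 6.29 CPM with ZFX12_13 and 4.96, 6.93 and 7.46 CPM with wtZFX, against 2.72, 2.72 and 1.82 CPM with pCMV6. Both construct groups lay above pCMV6, and both changes passed (log2 change 1.37, SE 0.18, adjusted p = 1.67e-06 for ZFX12_13; log2 change 1.41, SE 0.17, adjusted p = 4.78e-07 for wtZFX).

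The size of the GFAP change in DKO cells depended on how reads were counted. The antisense genes CCDC103 and FAM187A overlap 29.8% of the GFAP exon bases, and the unstranded column drops reads there. Counted over both strands, which cannot separate GFAP from these genes, the values were 11.8, 11.8 and 11.7 with ZFX12_13 and 10.2, 13.01 and 12.9 with wtZFX, against 10.5, 8.82 and 8.63 reads on the CPM scale with pCMV6. ZFX12_13 libraries still lay above pCMV6 and wtZFX libraries overlapped them. The changes were smaller but passed the test (log2 change 0.34, SE 0.11, adjusted p = 0.0213 for ZFX12_13; log2 change 0.38, SE 0.11, adjusted p = 0.00688 for wtZFX). The unstranded column kept 53.0% to 54.0% of these reads with ZFX12_13 and 48.6% to 57.7% with wtZFX, against 21.1% to 30.9% with pCMV6. In LN-229 the both-strand changes passed for siZFX (log2 change 1.31, SE 0.20, adjusted p = 2.42e-05), siZNF593 (log2 change 0.61, SE 0.21, adjusted p = 0.0331) and both siRNAs (log2 change 1.68, SE 0.21, adjusted p = 1.27e-06).

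CHI3L1 (ENSG00000133048, chr1:203178931-203186749, minus strand) and PROM1 (ENSG00000007062, chr4:15963076-16084378, minus strand) were almost unread in LN-229, so their direction could not be tested there. CHI3L1 had 10 reads over all 24 libraries, of which 2 were in 1 siControl_2 library and 0 in the other 14 LN-229 libraries, and it had too few counts to be tested in DKO cells as well. PROM1 had 110 reads over all libraries. Its counts were 2, 3 and 1 in siZFX libraries and 0, 0 and 2 in siZNF593 libraries, against 0 in all 3 siControl libraries, and 0, 0 and 6 with both siRNAs against 5, 3 and 0 in siControl_2 libraries. All of these are at or near the limit of 3 counts, and no fold is given. In DKO cells PROM1 had 0.708, 0.644 and 0.678 CPM with ZFX12_13 and 0.245, 0.548 and 0.497 CPM with wtZFX, against 0.453, 0.61 and 0.151 CPM with pCMV6. The ZFX12_13 libraries lay above the rest, and neither construct passed the test (log2 change 0.71, 95% interval -0.17 to 1.60, adjusted p = 0.236 for ZFX12_13; log2 change 0.08, 95% interval -0.84 to 0.998, adjusted p = 0.912 for wtZFX).

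SOX2 (ENSG00000181449, chr3:181711924-181714436, plus strand), a factor that keeps neural precursors undifferentiated, was called in 1 of these comparisons. It had 107, 104 and 99.1 CPM in siZFX cells and 128, 108 and 121 CPM in siZNF593 cells, against 139, 137 and 126 CPM in siControl cells. The siZFX libraries lay below the controls and the siZNF593 libraries overlapped them. The siZFX fall passed the test (log2 change -0.37, SE 0.12, adjusted p = 0.0296), but not with siControl_2 as the control (log2 change -0.19, adjusted p = 0.266), with all 6 controls (log2 change -0.28, adjusted p = 0.0509), or without siControl replicate 1 or 2 or siZFX replicate 2 or 3 (adjusted p of 0.0526 to 0.0724). The siZNF593 difference did not pass (log2 change -0.17, 95% interval -0.41 to 0.07, adjusted p = 0.359). Doubly treated cells had 121, 116 and 75.9 CPM, against 124, 114 and 115 CPM in siControl_2 cells. Replicate 3 was the lowest of all and the groups overlapped (log2 change -0.18, 95% interval -0.42 to 0.07, adjusted p = 0.285), and without that library the log2 change was 0.01 (adjusted p = 0.917). With all 3 libraries set against siControl in place of siControl_2 it passed (log2 change -0.36, adjusted p = 0.0261). SOX2 lies inside the span of the long noncoding gene SOX2-OT with no shared exon, and SOX2-OT fell with siZFX (3.29 CPM in siZFX cells and 16.7 CPM in siControl cells on average; log2 change -2.35, SE 0.14, adjusted p = 1.41e-11). SOX2-OT averaged 14.2 CPM with both siRNAs and 16.0 CPM in siControl_2 cells, which did not pass (log2 change -0.18, SE 0.12, adjusted p = 0.276), and the effect of both siRNAs differed from that of siZFX (log2 difference 2.17, adjusted p = 1.23e-08). With siZNF593 it averaged 15.2 CPM, against 16.7 CPM in siControl cells (adjusted p = 0.44). ZFX RNA averaged 26.7 CPM with both siRNAs and 16.0 CPM with siZFX, and the part of this in SOX2-OT was not tested. In DKO cells SOX2 ran from 10.5 to 14.9 CPM with overlapping groups, and neither construct passed (log2 change -0.15, 95% interval -0.37 to 0.07, adjusted p = 0.318 for ZFX12_13; log2 change 0.04, 95% interval -0.17 to 0.26, adjusted p = 0.773 for wtZFX).

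SOX9 (ENSG00000125398, chr17:72121020-72126420, plus strand), a related factor of stem-like and glial cells, had the largest change of the 10 genes in any comparison. It had 1.77, 1.94 and 1.91 CPM in siZFX cells and 0.651, 0.724 and 0.634 CPM in siZNF593 cells, against 0.876, 0.928 and 1.42 CPM in siControl cells. The siZFX libraries lay above and the siZNF593 libraries below the controls, yet neither passed the test (log2 change 0.81, SE 0.35, adjusted p = 0.0864 for siZFX; log2 change -0.67, SE 0.38, adjusted p = 0.214 for siZNF593). Against siControl_2 the siZFX difference had the other sign and did not pass (log2 change -0.24, adjusted p = 0.621), and the siZNF593 difference passed (log2 change -1.72, adjusted p = 0.0011). Doubly treated cells had 0.0798, 0.151 and 0.196 CPM, from 2, 4 and 5 reads, against 2.44, 1.61 and 2.61 CPM from 53, 32 and 51 reads in siControl_2 cells. The groups did not overlap, and SOX9 fell (log2 change -3.91, 95% interval -4.78 to -3.04, adjusted p = 3.16e-07). Against siControl the fall was smaller, with a log2 change of -2.86 (adjusted p = 2.5e-05). In DKO cells SOX9 was far more abundant, with 32.0, 37.5 and 36.2 CPM for ZFX12_13 and 31.8, 39.1 and 35.9 CPM for wtZFX, against 39.2, 43.5 and 37.9 CPM for pCMV6. ZFX12_13 libraries lay just below pCMV6, wtZFX libraries overlapped them, and neither difference passed (log2 change -0.19, SE 0.08, adjusted p = 0.0679 for ZFX12_13; log2 change -0.17, SE 0.08, adjusted p = 0.0777 for wtZFX).

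NCAM1 (ENSG00000149294, chr11:112961247-113278436, plus strand), a homophilic neural adhesion molecule, fell with siZFX and not with siZNF593. It had 26.3, 29.8 and 30.6 CPM in siZFX cells and 47.3, 50.2 and 59.8 CPM in siZNF593 cells, against 50.8, 49.4 and 43.5 CPM in siControl cells. The siZFX libraries lay well below all the others, and the siZNF593 libraries overlapped the controls. The siZFX change passed (log2 change -0.73, SE 0.10, adjusted p = 2.56e-06) under every alternative tried, and the siZNF593 change did not pass (log2 change 0.13, 95% interval -0.06 to 0.31, adjusted p = 0.343). Doubly treated cells had 46.7, 50.1 and 48.4 CPM, against 51.5, 50.03 and 48.7 CPM in siControl_2 cells. These groups overlapped and the difference did not pass (log2 change -0.05, 95% interval -0.23 to 0.13, adjusted p = 0.712). In DKO cells NCAM1 had 50.3, 61.6 and 57.7 CPM with ZFX12_13 and 50.8, 58.97 and 51.2 CPM with wtZFX, against 69.8, 69.2 and 69.5 CPM with pCMV6. Every construct library lay below every pCMV6 library, and NCAM1 fell with both (log2 change -0.30, SE 0.07, adjusted p = 0.00148 for ZFX12_13; log2 change -0.38, SE 0.07, adjusted p = 9.6e-05 for wtZFX).

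L1CAM (ENSG00000198910, chrX:153861514-153886174, minus strand), which promotes neurite growth and cell migration, rose with siZNF593 and with both constructs. It had 19.3, 23.1 and 20.7 CPM in siZFX cells and 38.2, 24.98 and 34.7 CPM in siZNF593 cells, against 17.4, 15.9 and 17.98 CPM in siControl cells. Both treated groups lay above the controls, with a wide spread for siZNF593. The siZNF593 rise passed the test (log2 change 0.93, SE 0.19, adjusted p = 0.00128), and the siZFX difference did not (log2 change 0.30, 95% interval -0.07 to 0.67, adjusted p = 0.268). Doubly treated cells had 26.8, 21.4 and 13.7 CPM, against 16.0, 14.6 and 16.1 CPM in siControl_2 cells. Replicate 3 lay below the controls and the other doubly treated libraries above them. The difference did not pass with that library (log2 change 0.41, 95% interval 0.03 to 0.78, adjusted p = 0.107) and passed without it (log2 change 0.64, adjusted p = 7.13e-05). With that library kept it also passed with no filter on low counts (log2 change 0.40, adjusted p = 0.00789) and, narrowly, with upper-quartile factors (log2 change 0.47, adjusted p = 0.0499). In DKO cells L1CAM had 4.37, 5.04 and 5.06 CPM with ZFX12_13 and 6.58, 6.83 and 6.55 CPM with wtZFX, against 3.76, 3.42 and 2.88 CPM with pCMV6. The 3 groups did not overlap, with wtZFX highest. L1CAM rose with both constructs (log2 change 0.52, SE 0.15, adjusted p = 0.00978 for ZFX12_13; log2 change 0.98, SE 0.14, adjusted p = 4.23e-06 for wtZFX), and ZFX12_13 was lower than wtZFX (log2 change -0.46, SE 0.14, adjusted p = 0.0183). The ZFX12_13 call against pCMV6 was lost without pCMV6 replicate 3 (adjusted p = 0.0591), and that against wtZFX without ZFX12_13 replicate 1 (adjusted p = 0.0625).

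**Figure D4:**
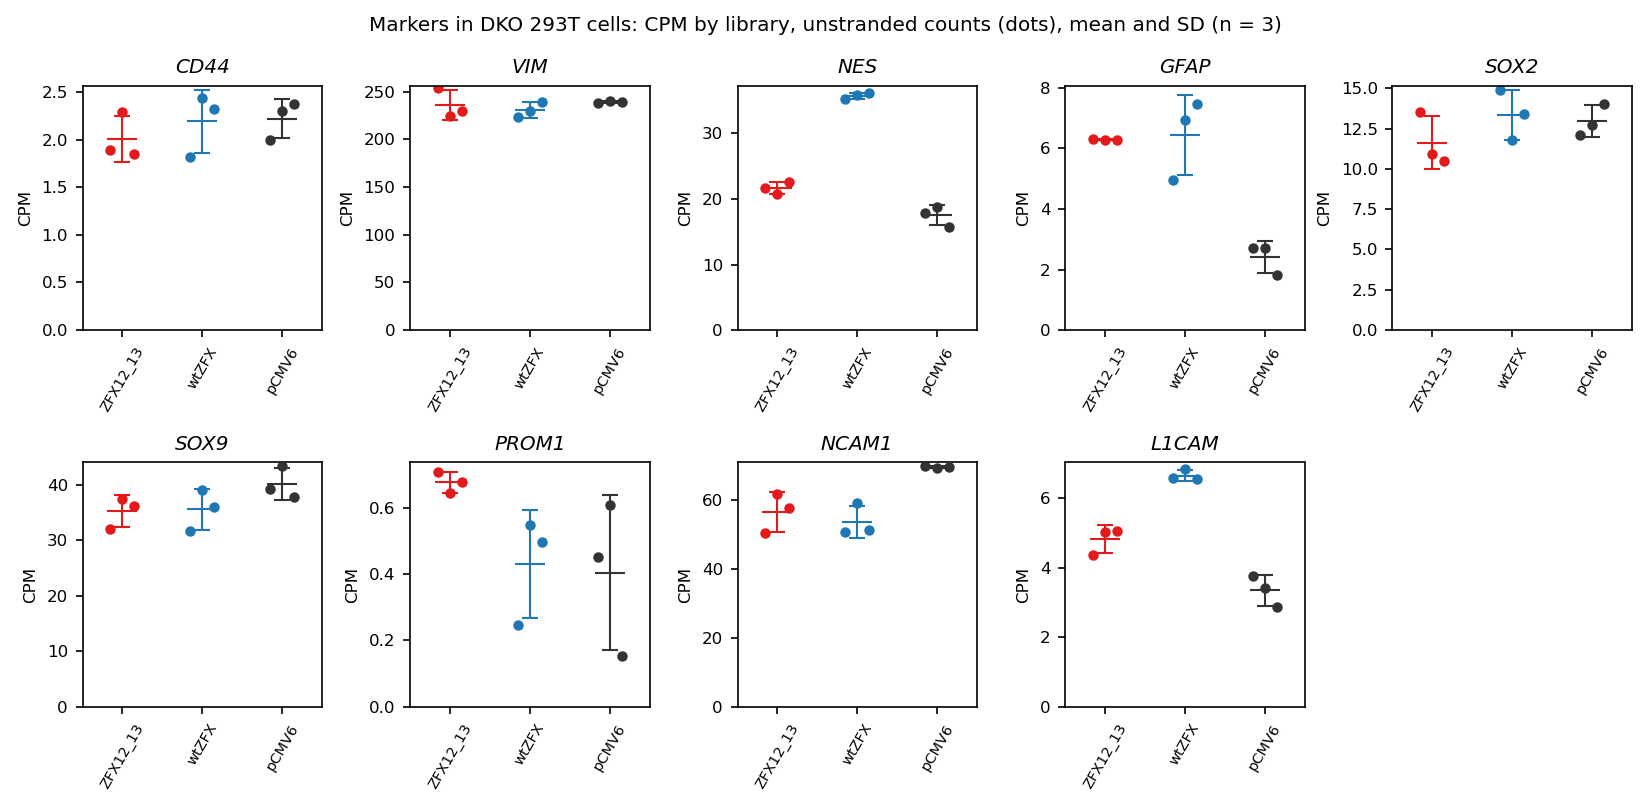
CPM of the 9 tested genes in each DKO library (dots), with mean and SD of 3 libraries, on axes that start at 0. NES and L1CAM are highest with wtZFX and lowest with pCMV6, and NCAM1 is highest with pCMV6.

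Direct comparison of the treatments separated the markers further. siZFX cells had 5 of the 8 tested genes higher than siZNF593 cells (CD44, VIM, NES, GFAP, SOX9) and 2 lower (NCAM1, L1CAM), when 40.5% of all genes were called (19.8% higher, 20.7% lower, and 54.6% without overlap, against 7 members). CD44 averaged 894 ± 6.28 CPM in siZFX cells and 415 ± 10.9 CPM in siZNF593 cells (log2 change 1.11, SE 0.06, adjusted p = 7.96e-13). NCAM1 averaged 28.9 ± 2.27 CPM in siZFX cells and 52.4 ± 6.52 CPM in siZNF593 cells (log2 change -0.86, SE 0.10, adjusted p = 1.49e-07). The GFAP difference (log2 change 0.63, SE 0.23, adjusted p = 0.0316) was lost without siZFX replicate 1 or 3 or siZNF593 replicate 1 or 2, and the L1CAM difference (log2 change -0.63, SE 0.19, adjusted p = 0.012) without siZNF593 replicate 1. Between the constructs, ZFX12_13 cells had 2 of 9 genes lower than wtZFX cells (NES, L1CAM), when 20.4% of all genes were called (9.73% higher and 10.6% lower). Groups of CPM did not overlap for 3 members there and for 32.1% of all genes.

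The 2 control sets differed in NES, which had 829, 843 and 773 CPM in siControl_2 cells and 1103, 1090.0 and 1064 CPM in siControl cells. The siControl_2 libraries were lower without overlap (log2 change -0.41, SE 0.09, adjusted p = 0.00463). That was 1 of 8 tested members, when 10.3% of all genes were called between the 2 sets (5.43% higher and 4.88% lower). Groups did not overlap for 4 members and for 33.8% of all genes. SOX9 lay higher in siControl_2 libraries without overlap and missed the threshold (log2 change 1.05, SE 0.35, adjusted p = 0.0581), which it passed under DESeq2 (adjusted p = 0.0279). What set the controls apart was not tested.

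The effect of both siRNAs, taken against siControl_2, was set against the effect of each siRNA alone, taken against siControl. Against the siZFX effect, 4 of 8 members differed, when 17.7% of all genes did (8.76% higher and 8.97% lower). The combined effect was lower for CD44 (log2 difference -0.36, SE 0.08, adjusted p = 0.00317), NES (log2 difference -0.75, SE 0.13, adjusted p = 0.000297) and SOX9 (log2 difference -4.71, SE 0.57, adjusted p = 2.38e-06), and higher for NCAM1 (log2 difference 0.68, SE 0.13, adjusted p = 0.000799). Without replicate 3 of the combined treatment, VIM (log2 difference -0.45, adjusted p = 1.82e-05), SOX2 (0.39, adjusted p = 0.00132) and GFAP (0.93, adjusted p = 0.0399) passed as well. The SE then went from 0.131 to 0.081 for VIM and from 0.175 to 0.094 for SOX2. The share of all genes called in that fit is not given, so these additions are a description. Against the siZNF593 effect, 4 of 8 differed, when 16.6% of all genes did (7.97% higher and 8.6% lower). The combined effect was higher for CD44 (log2 difference 0.75, SE 0.08, adjusted p = 1.75e-06), VIM (log2 difference 0.45, SE 0.13, adjusted p = 0.0224) and GFAP (log2 difference 1.51, SE 0.35, adjusted p = 0.00416), and lower for SOX9 (log2 difference -3.24, SE 0.60, adjusted p = 0.000599). The VIM difference was lost without siZNF593 replicate 1 or 3 or siControl_2 replicate 2 (adjusted p of 0.0555 to 0.0647), and the NES difference passed without replicate 3 of the combined treatment (0.30, adjusted p = 0.00382). Counted over both strands, VIM differed from both single effects (log2 difference -0.51, adjusted p = 0.000102 against siZFX and 0.31, adjusted p = 0.0126 against siZNF593). GFAP counted that way, with all libraries, did not differ from the siZFX effect (log2 difference 0.365, SE 0.288, adjusted p = 0.443). Its difference from the siZNF593 effect was then smaller and passed (log2 difference 1.07, adjusted p = 0.0147). Each of these differences rests on both control sets, whose CPM did not overlap for CD44, NES, SOX2 and SOX9. ZFX RNA averaged 26.7 CPM with both siRNAs and 53.6 CPM in siControl_2 cells. With siZFX alone it averaged 16.0 CPM, against 50.5 CPM in siControl cells. The part of this smaller lowering of ZFX in the differences from the siZFX effect was not tested.

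Genes usually read together with CD44 and VIM were more often called higher than lower with siZFX, and more often lower than higher with siZNF593, against either control set. These genes were chosen with earlier results of the data known, so the counts are a description. Between the control sets themselves 9 of the 30 were higher and 6 lower in siControl_2 than in siControl cells, when 10.3% of all genes were called. A list of 30 other mesenchymal state genes had 15 higher and 4 lower of 30 tested (median log2 change 0.27) in siZFX cells, when 13.8% of all genes were higher and 17.1% lower with a median of 0.02. The complement protease gene C1S had 13.8 ± 0.672 CPM in siZFX cells and 7.14 ± 0.992 CPM in siControl cells (log2 change 0.94, adjusted p = 1.69e-05). It differed between the control sets too, with 17.8 ± 0.518 CPM in siControl_2 cells and 7.14 ± 0.992 CPM in siControl cells (log2 change 1.31, adjusted p = 8.51e-07). With siControl_2 as the control the list gave 13 higher and 7 lower, and no share of all genes is given for that control.

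With siZNF593 the same list had 2 higher and 11 lower of 30 tested (median log2 change -0.13), when 12.2% of all genes were higher and 14.6% lower. Against siControl_2 it had 5 higher and 13 lower. ACTN1, an actin crosslinker, had 332 ± 11.8 CPM in siZNF593 cells and 628 ± 8.26 CPM in siControl cells (log2 change -0.92, adjusted p = 1.42e-10), and CAV1, the main protein of caveolae, had 197 ± 19.8 CPM in siZNF593 cells and 353 ± 13.9 CPM in siControl cells (log2 change -0.84, adjusted p = 3.32e-08). The matrix gene FN1 had 1447 ± 125 CPM in siZNF593 cells and 2340.0 ± 90.02 CPM in siControl cells (log2 change -0.69, adjusted p = 1.24e-07). With both siRNAs the list had 4 higher and 13 lower of 30 tested (median log2 change -0.17), when 17.6% of all genes were higher and 20.6% lower. The complement gene C3 had 1.63 ± 0.624 CPM in doubly treated cells and 10.1 ± 0.917 CPM in siControl_2 cells (log2 change -2.63, adjusted p = 6.03e-06), and the control sets differed in it as well, with 10.1 ± 0.917 CPM in siControl_2 cells and 1.16 ± 0.497 CPM in siControl cells (log2 change 3.14, adjusted p = 5.28e-06). Against siControl the list gave 4 higher and 11 lower for both siRNAs, and without replicate 3 of the combined treatment 7 higher and 14 lower. In DKO cells the list had 11 higher and 1 lower of 27 tested (median log2 change 0.25) with ZFX12_13 and 10 higher and 1 lower of 27 tested (median log2 change 0.15) with wtZFX, when 20.9% and 23.2% of all genes were higher. GFPT2, an enzyme of hexosamine synthesis, had 73.96 ± 2.28 CPM in wtZFX cells and 14.9 ± 1.10 CPM in pCMV6 cells (log2 change 2.31, adjusted p = 1.85e-16). Transcription factors and signalling genes placed above the mesenchymal state had 6 higher and 5 lower of 22 tested (median log2 change 0.08) with siZFX, 5 higher and 8 lower of 22 tested (median log2 change -0.17) with siZNF593 and 6 higher and 9 lower of 22 tested (median log2 change -0.20) with both siRNAs. Against siControl_2 these became 6 higher and 9 lower with siZFX (median log2 change -0.06, the other sign) and 5 higher and 13 lower with siZNF593 (median log2 change -0.36). Among them TWIST1, a factor of epithelial to mesenchymal transition, had 29.6 ± 2.30 CPM in siZNF593 cells and 54.6 ± 1.19 CPM in siControl cells (log2 change -0.88, adjusted p = 4.29e-07).

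**Figure D5:**
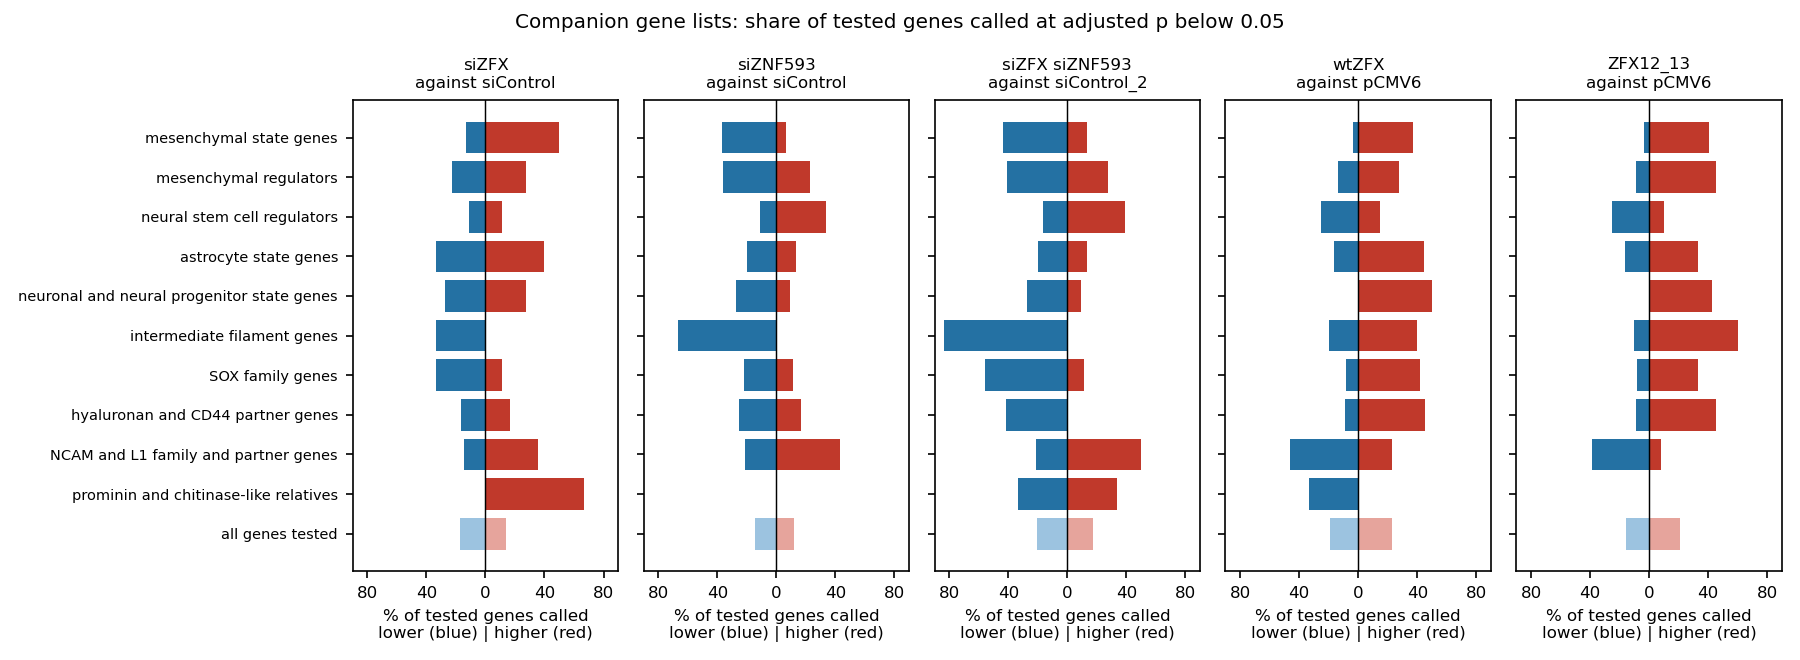
Share of tested genes of each companion list called higher (red, to the right) or lower (blue, to the left) at an adjusted p below 0.05, in 5 comparisons, with all tested genes in the bottom row. Mesenchymal state genes lean to the right with siZFX (15 of 30) and to the left with siZNF593 (11 of 30).

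The other intermediate filament and lamina genes, from the family of VIM, NES and GFAP, had 0 higher and 2 lower of 6 tested (median log2 change -0.24) with siZFX, 0 higher and 4 lower of 6 tested (median log2 change -0.46) with siZNF593 and 0 higher and 5 lower of 6 tested (median log2 change -0.64) with both siRNAs. In the same order 13.8%, 12.2% and 17.6% of all genes were higher and 17.1%, 14.6% and 20.6% lower. The lists here and below are small, and their counts are a description. LMNB2, which encodes a B-type lamin, had 111 ± 3.77 CPM in siZNF593 cells and 381 ± 9.63 CPM in siControl cells (log2 change -1.78, adjusted p = 3.33e-07). The same gene had 107 ± 29.1 CPM in doubly treated cells and 351 ± 23.3 CPM in siControl_2 cells (log2 change -1.71, adjusted p = 3.51e-07). In DKO cells the list had 6 higher and 1 lower of 10 tested (median log2 change 0.51) with ZFX12_13 and 4 higher and 2 lower of 10 tested (median log2 change 0.24) with wtZFX. Of all genes 20.9% were higher and 15.7% lower with ZFX12_13, and 23.2% and 19.2% with wtZFX. INA, the neuronal filament protein alpha-internexin, had 47.2 ± 3.97 CPM in wtZFX cells and 19.9 ± 0.711 CPM in pCMV6 cells (log2 change 1.25, adjusted p = 1.25e-12), and LMNA, the A-type lamin gene, had 203 ± 3.29 CPM in wtZFX cells and 96.2 ± 1.69 CPM in pCMV6 cells (log2 change 1.08, adjusted p = 1.7e-14).

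The astrocyte state genes apart from GFAP did not follow it in one direction. The list had 6 higher and 5 lower of 15 tested (median log2 change 0.26) with siZFX, 2 higher and 3 lower of 15 tested (median log2 change -0.01) with siZNF593 and 2 higher and 3 lower of 15 tested (median log2 change -0.06) with both. In the same order 13.8%, 12.2% and 17.6% of all genes were higher and 17.1%, 14.6% and 20.6% lower. CLU, a secreted chaperone, had 216 ± 22.99 CPM in siZFX cells and 66.3 ± 4.45 CPM in siControl cells (log2 change 1.71, adjusted p = 5.45e-13), while FABP7, a fatty acid binding protein of radial glia, had 15.1 ± 0.656 CPM in siZFX cells and 61.96 ± 4.79 CPM in siControl cells (log2 change -2.04, adjusted p = 6.21e-13). This list depended on the control set. Of its 15 tested genes 6 were higher and 0 lower in siControl_2 than in siControl cells, and against siControl both siRNAs together gave 10 higher and 1 lower in place of 2 and 3. Against siControl_2, siZFX gave 4 higher and 5 lower and siZNF593 gave 2 higher and 7 lower. Oligodendrocyte markers, summed over 5 genes, ran from 150.5 to 164 CPM in siZFX cells and from 461 to 474 CPM in siZNF593 cells, against 240.3 to 273 CPM in siControl cells, and from 590.3 to 717 CPM with both siRNAs against 421 to 450.1 CPM in siControl_2 cells. Of these 5 markers 0 or 1 was at 0 in all 3 libraries of a group. Only 2 averaged 1 CPM or more in siZFX, siZNF593 and siControl cells, 3 with both siRNAs and 4 in siControl_2 cells. The sums therefore rest on part of the list. Epithelial and kidney markers, summed over 9 genes, ran from 104.5 to 121 CPM in siZFX cells and from 58.8 to 65.0 CPM in siZNF593 cells, against 82.1 to 88.8 CPM in siControl cells. They ran from 45.6 to 55.0 CPM with both siRNAs, against 69.96 to 73.1 CPM in siControl_2 cells, and 3 to 5 of the 9 were at 0 throughout a group in LN-229. In DKO cells this sum ran from 140.4 to 146 CPM with ZFX12_13 and from 128.5 to 141 CPM with wtZFX, against 93.4 to 97.5 CPM with pCMV6. Neuron markers, summed over 6 genes, ran from 137.5 to 150.2 CPM in siZFX cells and from 116 to 131 CPM in siZNF593 cells, against 103 to 106 CPM in siControl cells, and from 133 to 157 CPM with both siRNAs, against 108 to 120.1 CPM in siControl_2 cells. Each of these sums lay apart from its control without overlap in the groups given. Of all single genes 51.8% did so with siZFX, 44.8% with siZNF593, 45.6% with both siRNAs, 46.0% with ZFX12_13 and 55.7% with wtZFX. The 2 control sets did not overlap in these sums either, and the siZNF593 neuron sum overlapped that of siControl_2 cells. The part of the sums in any result was not tested.

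SOX family genes other than SOX2 and SOX9 had 1 higher and 3 lower of 9 tested (median log2 change 0.01) with siZFX, 1 higher and 2 lower of 9 tested (median log2 change -0.16) with siZNF593 and 1 higher and 5 lower of 9 tested (median log2 change -0.39) with both. In the same order 13.8%, 12.2% and 17.6% of all genes were higher and 17.1%, 14.6% and 20.6% lower, also for the stem cell regulators below. SOX10, a glial lineage factor, had 683 ± 34.8 CPM in siZFX cells and 1275 ± 16.9 CPM in siControl cells (log2 change -0.90, adjusted p = 7.15e-08). SOX8 had 11.7 ± 1.45 CPM in siZNF593 cells and 48.8 ± 2.36 CPM in siControl cells (log2 change -2.06, adjusted p = 9.52e-12). In DKO cells SOX18, a factor of vessel endothelium, had 10.8 ± 1.02 CPM in wtZFX cells and 1.35 ± 0.35 CPM in pCMV6 cells (log2 change 3.01, adjusted p = 1.64e-12). Neural stem cell regulators had 2 higher and 2 lower of 18 tested (median log2 change -0.05) with siZFX, 6 higher and 2 lower of 18 tested (median log2 change 0.03) with siZNF593 and 7 higher and 3 lower of 18 tested (median log2 change 0.15) with both. The neural factor POU3F2 had 13.7 ± 0.94 CPM in siZFX cells and 26.99 ± 1.12 CPM in siControl cells (log2 change -0.98, adjusted p = 3.69e-08), and OLIG2, a glial factor, had 11.4 ± 0.646 CPM in siZFX cells and 20.9 ± 1.67 CPM in siControl cells (log2 change -0.88, adjusted p = 7.09e-06). They are the 2 lower regulators of the siZFX comparison, in which 2 others were higher. Against siControl_2, siZFX gave 3 higher and 4 lower SOX family genes, and 5 higher and 4 lower stem cell regulators. With siZNF593 the stem cell regulators then gave 5 higher and 5 lower. No share of all genes is given for that control, and these counts are a description.

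Relatives and partners of NCAM1 and L1CAM had 5 higher and 2 lower of 14 tested (median log2 change 0.18) with siZFX, 6 higher and 3 lower of 14 tested (median log2 change 0.28) with siZNF593 and 7 higher and 3 lower of 14 tested (median log2 change 0.28) with both. For this list and those below, 13.8%, 12.2% and 17.6% of all genes were higher in these comparisons and 17.1%, 14.6% and 20.6% lower. The LN-229 genes described next are among the fewer that were lower, while more of the list was higher. FGFR1, a receptor that both adhesion molecules engage, had 28.7 ± 1.66 CPM in siZNF593 cells and 72.6 ± 1.31 CPM in siControl cells (log2 change -1.34, adjusted p = 3.84e-09), and the L1 family gene NRCAM had 20.3 ± 2.82 CPM in siZNF593 cells and 44.2 ± 1.97 CPM in siControl cells (log2 change -1.13, adjusted p = 6.45e-08). CHL1, the close homolog of L1CAM, had 11.9 ± 1.30 CPM in siZFX cells and 17.7 ± 1.51 CPM in siControl cells (log2 change -0.58, adjusted p = 0.000598), and it was higher in the other control set, with 77.2 ± 0.618 CPM in siControl_2 cells and 17.7 ± 1.51 CPM in siControl cells (log2 change 2.12, adjusted p = 1.45e-11). In DKO cells the list had 1 higher and 5 lower of 13 tested (median log2 change -0.16) with ZFX12_13 and 3 higher and 6 lower of 13 tested (median log2 change -0.12) with wtZFX. Hyaluronan enzymes and CD44 partners had 2 higher and 2 lower of 12 tested (median log2 change 0.04) with siZFX, 2 higher and 3 lower of 12 tested (median log2 change -0.11) with siZNF593 and 0 higher and 5 lower of 12 tested (median log2 change -0.15) with both. Against siControl both siRNAs gave 3 higher and 3 lower of these 12 genes in place of 0 and 5. The hyaluronan synthase gene HAS2 had 9.78 ± 0.891 CPM in siZNF593 cells and 5.76 ± 0.389 CPM in siControl cells (log2 change 0.76, adjusted p = 0.000328). Neuronal and neural progenitor genes had 3 higher and 3 lower of 11 tested (median log2 change 0.17) with siZFX, 1 higher and 3 lower of 11 tested (median log2 change 0.10) with siZNF593 and 1 higher and 3 lower of 11 tested (median log2 change -0.52) with both siRNAs. They had 6 higher and 0 lower of 14 tested (median log2 change 0.23) with ZFX12_13 and 7 higher and 0 lower of 14 tested (median log2 change 0.31) with wtZFX. Of all genes 20.9% were higher and 15.7% lower with ZFX12_13, and 23.2% and 19.2% with wtZFX. Against siControl_2 the siZFX count became 2 higher and 5 lower (median log2 change -0.47). INSM1, a factor of neuronal and endocrine precursors, had 18.3 ± 1.93 CPM in wtZFX cells and 5.57 ± 1.11 CPM in pCMV6 cells (log2 change 1.70, adjusted p = 6.82e-10). Of the relatives of CHI3L1 and PROM1, the chitinase-like gene CHI3L2 was read where CHI3L1 was not, with 29.4 ± 0.552 CPM in siZFX cells and 11.5 ± 1.08 CPM in siControl cells (log2 change 1.35, adjusted p = 3.33e-09).

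The members were also compared with one another and with all protein-coding genes by the Pearson correlation of log2 CPM, as a description over libraries that share groups. Over the 15 LN-229 libraries CD44 and VIM had r = 0.950, the highest of any pair there, and VIM and L1CAM had r = -0.830, the lowest. Over the 9 DKO libraries NES and L1CAM had r = 0.947. The genes most like CD44 in LN-229 were TNFRSF21, RNF182 and NFYC (r = 0.978 each), and that most like VIM was LZIC (r = 0.986). EIF3A was most like NES (r = 0.986), TMEM143 most like GFAP (r = 0.972), and GPS1 most like SOX2 (r = 0.955). VRK2 was most like SOX9 (r = 0.922), SLC12A2 most like NCAM1 (r = 0.967) and ITGA5 most like L1CAM (r = 0.947). In DKO cells SLC4A7 was most like NES (r = 0.997) and PTPRM most like L1CAM (r = 0.993).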

How the data were processed

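RNA-seq libraries of LN-229 and DKO 293T cells were analysed from the deposited counts per gene, 24 libraries in 8 groups of 3. The authors used STAR, HTSeq and DESeq2 on GRCh38 (hg38), per the submitters' processing notes, which give no versions. Each deposited table holds unstranded counts and counts for either strand; the first strand column held 50.1% to 50.7% of stranded counts, so the unstranded column was used. Reads on genes made up 71.0% to 80.5% of all reads. Symbols and coordinates came from GENCODE 29, and promoter sequences from RefSeq (GRCh38.p14).

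Each line was fitted alone with edgeR 4.0.16 in R 4.3.3 (quasi-likelihood, robust, TMM factors, filterByExpr, 1 coefficient per group). A gene was called below 0.05 after Benjamini-Hochberg adjustment across every gene in the fit. Replicates varied by 11.2% (LN-229) and 5.26% (DKO), as biological coefficients of variation. The filter kept 8 of 10 members in LN-229 and 9 in DKO cells. Reads over both strands are divided by the unstranded totals. The members and the 10 companion lists (171 different genes, from general knowledge) were chosen with earlier results of these data known. All members were named; of each list, up to 4 called genes of largest absolute change at a mean of at least 5 CPM, and the text describes part of them. Of 110 named list genes, 7 had at least 1.5 times as many counts over both strands, and their values are uncertain. Alternatives were DESeq2 1.42.0, a replicate block, both strands, other control sets, leaving out each library, fitting the compared groups alone, other scaling factors (upper quartile, RLE), and other filters (none, or 1 CPM in at least 3 libraries). The control sets, both strands and replicate 3 were added for the lists after seeing the data. A result on 1 list gene is not reported here.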

Additional observations from a re-analysis of the deposited data

Results flagged for a closer look

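For 6 members the effect of both siRNAs, against siControl_2, differed from the effect of 1 siRNA alone, against siControl, by edgeR's quasi-likelihood test of the difference between the effects (log2 scale, adjusted p below 0.05). In each of these 2 tests 4 of 8 tested members differed. Of all genes 17.7% differed from the siZFX effect and 16.6% from the siZNF593 effect, and the member counts are a description. Set against the siZFX effect, the combined effect was lower for CD44 (-0.36), NES (-0.75) and SOX9 (-4.71) and higher for NCAM1 (0.68). Set against the siZNF593 effect, it was higher for CD44 (0.75), VIM (0.45) and GFAP (1.51) and lower for SOX9 (-3.24). CD44 and SOX9 differed from both single effects, and so did VIM counted over both strands (-0.51 against siZFX and 0.31 against siZNF593). GFAP counted over both strands differed less from the siZNF593 effect (1.07). SOX9 rests on 2, 4 and 5 reads in the doubly treated libraries. Each value takes in the difference between the 2 control sets, and the part of those sets in it was not tested. ZFX RNA was lowered less with both siRNAs (26.7 CPM) than with siZFX alone (16.0 CPM), and the part of that was not tested either.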

How the results depend on the processing

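Over all results on members, 1207 alternative values kept their direction and side of the threshold, 35 passed it newly, 30 lost it, 31 moved, and none turned a called direction. Fitting only the groups compared gave 7 members called for siZFX against siControl (4 in the report), 3 for both siRNAs (5) and 3 for siControl_2 against siControl (1), the last being 2 with at least 1 CPM in 3 libraries, 2 with DESeq2 and 2 without siControl_2 replicate 2. It also gave 3700 of all genes between the control sets, against 1824 in the report. The cause of these moves was not tested. Leaving out single libraries gave 3 to 4 members for siZFX, 4 to 5 for siZNF593, 4 to 6 for both siRNAs, 1 to 2 between control sets, 5 to 7 for siZFX against siZNF593, 4 to 7 and 3 to 5 for the combined effect minus that of siZFX and of siZNF593, 3 to 5 for ZFX12_13, 4 to 5 for wtZFX and 2 for ZFX12_13 against wtZFX. Apart from the fit of the 2 control sets alone, no share of all genes is set beside these member counts, which are a description. Replicate numbers did not pair the libraries (correlations of -0.09 to 0.10 in LN-229, -0.05 to 0.04 in DKO). A replicate block gave 5 members for wtZFX and 5 for ZFX12_13, adding SOX9 (log2 change -0.18 and -0.19), and changed no other count, at 4 for siZFX, 5 for siZNF593, 5 for both siRNAs, 1 between control sets, 7 for siZFX against siZNF593, 4 for each combined difference and 2 between constructs. Of the list counts, 213 stayed within 1.5 times under the added alternatives and 47 did not. Counts of 0 to 6 for CHI3L1 and PROM1 in LN-229 limit what depth can show.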
